A study of Homo sapiens with 8 samples.

Results

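The response of NB4 cells labelled shTFEB to all-trans retinoic acid (ATRA) was followed across all genes whose average over the 4 deposited tables reached 1 FPKM, a fragment count scaled to transcript length and sequencing depth. These were 11052 of the 22627 gene symbols in the tables. They were chosen by average level, to which the ATRA groups contribute, so the choice is not independent of the response. NB4 is an established human cell line from acute promyelocytic leukaemia and bears the PML-RARA fusion. One pair of groups had received, by lentivirus, a short hairpin RNA against TFEB (shTFEB) and the other pair a scrambled hairpin (shScr). Within each pair 1 group was given 1 µM ATRA and 1 group its ethanol vehicle, both for 72 h. The labels describe 2 biological replicates per group and 8 samples in all, and the titles of the shScr ATRA samples also carry the word vehicle, so their group was taken from their treatment field. Whether the hairpin cells were a single clone or a pool is not given in the sources used here.

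Each table holds 1 value per transcript and group, and how the 2 samples of a group were combined is not stated. No spread between replicates could be computed, which leaves every difference below without a test, a p-value or a replicate check. Unless shScr is named, vehicle and ATRA mean the 2 groups labelled shTFEB. The words rose and fell are kept for genes whose log2 ratio of FPKM + 1 (ATRA over vehicle) was at least 1 in size. That 2-fold mark describes size alone. Folds are ratios of FPKM without the added 1, whereas log2 ratios include it and understate changes of low genes.

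PML-RARA joins the retinoic acid receptor alpha to the PML protein and holds myeloid cells at the promyelocyte stage by keeping retinoid target genes silent. ATRA releases that block, and promyelocytes then mature towards granulocytes: they stop making primary granule proteins, assemble the oxidase that produces superoxide, and acquire receptors for chemoattractants and antibodies. TFEB, a relative of TFE3, MITF and TFEC, is a transcription factor that binds the CLEAR element in promoters of lysosome and autophagy genes and is held in the cytoplasm by mTORC1.

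TFEB mRNA was examined first as a check of the labels. It stood at 1.35 FPKM under vehicle and 8.44 under ATRA, against 1.203 and 19.4 in the shScr groups. The deposited bounds, summed over its 5 transcript models, were 1.11 to 1.63 under vehicle and 7.41 to 9.51 under ATRA. By these FPKM values the vehicle group labelled shTFEB was not below its shScr counterpart. That label is not borne out by TFEB mRNA, whereas the ATRA group was lower than shScr ATRA. TFEB still rose with ATRA, 6.23-fold. TFE3 went from 7.88 to 15.98 FPKM, short of the mark (log2 ratio 0.94). MITF was at 0.309 and 0.116 FPKM and TFEC at 0.00179 and 0.356 FPKM. The promyelocyte genes MPO (2462 FPKM under vehicle), PRTN3 (287), AZU1 (43.8) and CD33 (25.3), which mark the labelled cell type, were present. Of the other markers set for that type, CTSG was far lower (see the granule genes below) and ELANE is not given here. Relative to vehicle the depth of the ATRA table was 0.776, read from the spacing of its lowest values.

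Of the 11052 genes, 1270 rose (11.5%) and 1159 fell (10.5%), while 8623 stayed inside the mark, so 22.0% passed it in either direction. Of these, 2 rises and 1 fall rest on an estimate that failed or was skipped, so their change is unknown; EEF1A1, skipped under vehicle, is 1 of them. The middle 50% of log2 ratios ran from −0.57 to 0.34 around a median of −0.13. A log2 ratio of at least 4 in size was reached by 158 rises and 43 falls, but by only 127 rises and 5 falls among genes above 0 in both groups. At least 7 was reached by 18 rises and 6 falls, and with zeros set aside by 13 rises and no fall. Rescaling the tables by median-of-ratios factors moves the median by 0.13 to 0, and the split then becomes 1440 higher and 884 lower genes (62.0% of marked genes higher in place of 52.3%), with all 884 lower genes contained in the 1159.

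The counts are also given by vehicle level. That level is the denominator of the ratio, so low classes lean to rises and high classes to falls by construction, and nothing is read from their order. Among 5156 genes at 10 to 100 FPKM under vehicle, 5.78% rose and 12.6% fell, and among 643 genes at 100 to 1000 FPKM, 3.11% rose and 19.4% fell. Of 4557 genes at 1 to 10 FPKM 12.1% rose and 8.10% fell. Of the 604 genes under 1 FPKM under vehicle 66.4% rose, but such genes reached the comparison only through a higher value in another group and cannot fall past the mark. The filter acts in the same way inside the gene lists below, whose counts and medians cover the members that passed the filter and are descriptions. In 146 genes the level went from under 1 FPKM to at least 10 FPKM, 38 of them listed at 0 under vehicle. In 65 genes it went from at least 10 FPKM to under 1, 50 of them listed at 0 under ATRA. Most of these 65 are small RNA symbols, whose values are uncertain. By gene class, 1176 of 10239 protein-coding genes rose and 1031 fell, against 31 and 22 of 266 long noncoding genes. Small RNA symbols stood apart, with 46 rises and 86 falls among 273 (16.8% and 31.5%). They are shorter than most fragments of such a library, and many are listed at 0 in 1 of the groups.

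**Figure D1:**
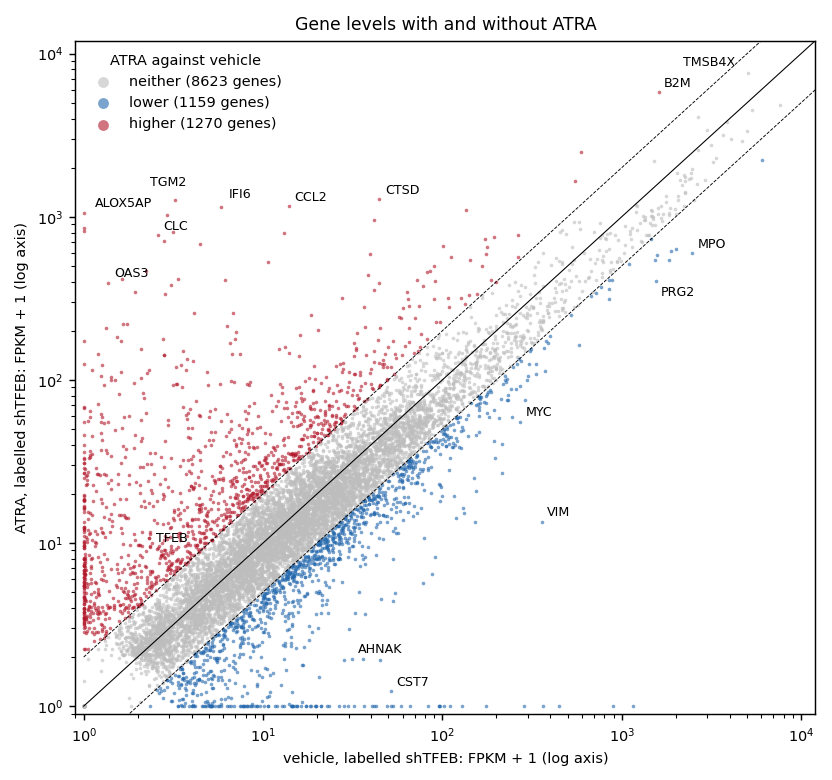
Levels of the compared genes under vehicle (horizontal) and ATRA (vertical) in the groups labelled shTFEB, as FPKM + 1 on log axes, 1 point per gene. The solid line marks equal levels and the dashed lines a 2-fold difference, with 1270 genes above and 1159 below. EEF1A1, whose vehicle estimate was skipped, is counted but not drawn. Genes such as TGM2, OAS3 and CLC lie far above the line near the left edge, and falls such as VIM and CST7 lie below it.

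The most abundant transcripts were largely those of ribosomal proteins in both groups. RPS6, a ribosomal protein gene, led under vehicle with 7660.1 FPKM and stood at 4863 under ATRA (log2 ratio −0.66). The other ribosomal protein symbols among the 10 most abundant genes had log2 ratios from −0.58 (RPS24) to 0.19 (RPS27), and TPT1 −0.21. TMSB4X, which encodes the actin-sequestering peptide thymosin beta 4, took the first place under ATRA, at 5072 and 7606 FPKM. B2M, the light chain of class I HLA molecules, moved up from 1609 to 5815 FPKM and passed the mark. Genes at several loci and genes with a failed or skipped estimate were not ranked here.

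The largest rise belonged to TGM2, which encodes transglutaminase 2, a crosslinking enzyme long used as a marker of retinoid action in these cells. It went from 2.23 to 1258 FPKM (563-fold), and from 4.08 to 2091 in shScr cells. ALOX5AP, which presents arachidonic acid to the lipoxygenase that starts leukotriene synthesis, followed with 1.92 and 1031 FPKM (1.21 and 1262 in shScr cells). Next came CLC, whose product galectin-10 forms the Charcot-Leyden crystals of eosinophils, at 1.58 and 771 FPKM against 0.1198 and 74.2 FPKM in shScr cells. In all 3 genes both ATRA groups lay far above both vehicle groups.

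The interferon-stimulated genes OAS3, OAS1, OAS2, IFI6, IFIT1, IFIT2 and IFIT3 made up 7 of the 25 largest rises. NCF1, the p47 subunit of the NADPH oxidase, and its pseudogenes NCF1B and NCF1C went to 802, 466 and 708 FPKM. Those 3 sequences are nearly identical, so their separate values are uncertain. The calprotectin pair S100A8 and S100A9, which binds calcium and zinc, went from 0.652 to 219.9 and from 2.08 to 379.8 FPKM, below the shScr ATRA levels of 685 and 1119.6. CD52, a small glycoprotein of the leukocyte surface, went from 3.46 to 677 FPKM. The chemokine genes CCL24, CXCL10 and CCL2 reached 413, 183 and 1161 FPKM. FGR, a kinase of the SRC family in granulocytes, went from 0.204 to 142 FPKM. BCL2A1 (survival), ASB2 (a ubiquitin ligase subunit), BPI (a bactericidal protein) and PTGES (prostaglandin E synthesis) had log2 ratios between 6.21 and 6.89.

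CST7, which encodes the cysteine protease inhibitor cystatin F, had the lowest log2 ratio among the named falls, from 50.5 to 0.233 FPKM. VIM, the intermediate filament gene vimentin, fell 28.7-fold, from 358 to 12.5 FPKM, and AHNAK, a very large scaffold protein, from 30.4 to 0.951. BCL2, the founding survival factor of its family, fell 38.8-fold, from 19.4 to 0.5002 FPKM, opposite to its relative BCL2A1. Both shScr values of BCL2 were close to these (21.3 and 0.501 FPKM).

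Among the other large falls, hepatocyte growth factor (HGF) went from 29.1 to 1.98 FPKM, the cytokine-like gene CYTL1 from 12.999 to 0.0354, the beta-defensin gene DEFB1 from 15.5 to 0.0545, and IGFBP4, which binds insulin-like growth factors, from 53.2 to 3.91. CYTL1 stood far higher in shScr vehicle, at 188 FPKM. ASS1, the argininosuccinate synthase of arginine synthesis, fell 12.2-fold, from 150.4 to 12.4 FPKM. The granule protease gene PRSS57 fell 15.7-fold, and TERT, the catalytic subunit of telomerase, went from 8.91 to 0.0818 FPKM. MTSS2, SPNS3, NT5DC2, MS4A3, PRRT4, MLC1, OAF, MRC2 (a collagen receptor), PACSIN3, DES (desmin), STAB1, EBF3, PNMT and NKD2 had log2 ratios between −4.22 and −3.16.

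**Figure D2:**
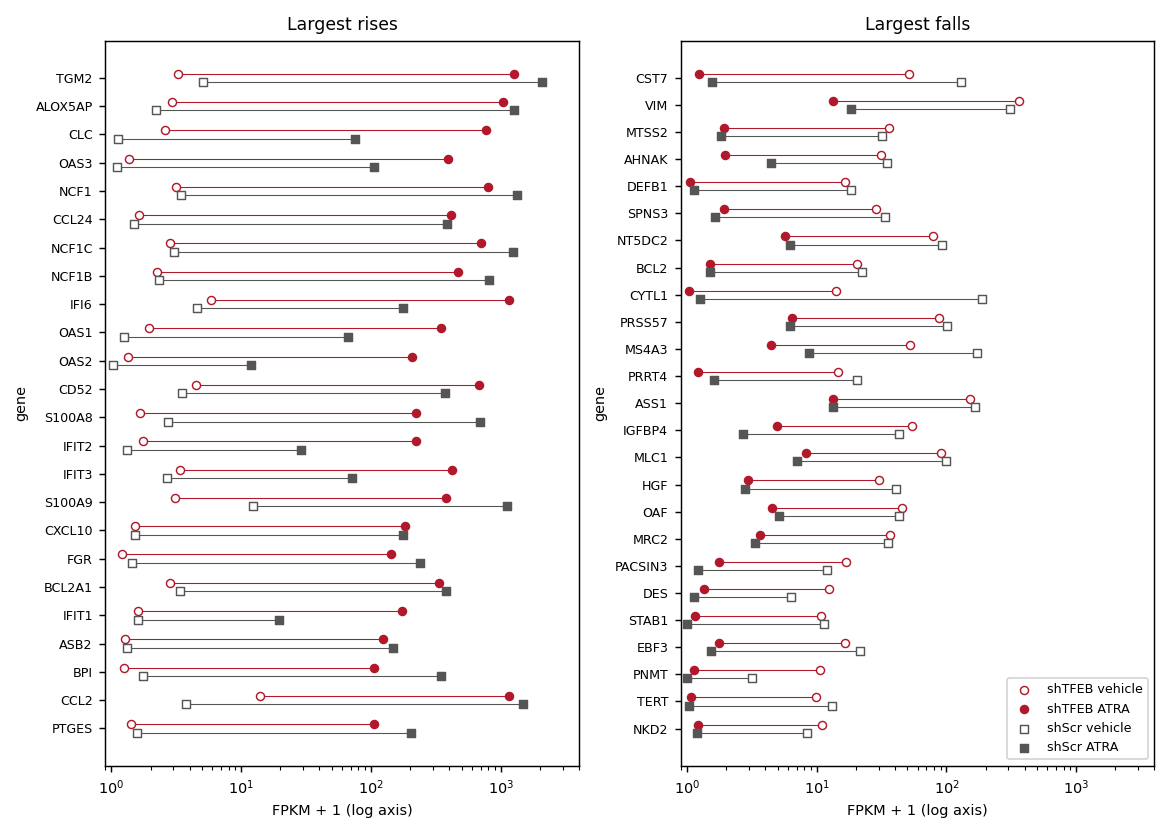
The 24 reported genes of the 25 largest rises (left) and the 25 largest falls (right) with ATRA in groups labelled shTFEB, among genes with at least 5 FPKM in 1 of the 2 groups and above 0 in both. Each gene has its FPKM + 1 on a log axis in 4 groups (red circles shTFEB, grey squares shScr; open vehicle, filled ATRA). The filled symbols lie right of the open ones for each rise and left of them for each fall in both cell lines. The interferon-stimulated genes OAS2, IFI6, IFIT1, IFIT2 and IFIT3 end further right in red than in grey.

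Interferon-stimulated genes rose almost throughout. Type I interferons signal through the kinases JAK1 and TYK2 to a complex that contains STAT2 and IRF9 and binds the interferon-stimulated response element (ISRE) in promoters of genes that block viral replication. Of 65 effector genes compared 61 rose and none fell, where 11.5% of all genes rose. The median log2 ratio was 3.74, 3.87 above that of all genes. In shScr cells 42 of the 65 rose, with a median of 1.85. The members short of the mark were APOBEC3A, APOBEC3B, IFITM2 and ZC3HAV1, with log2 ratios of 0.20, 0.38, 0.93 and 0.94.

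Short stretches of promoter are given for the 5 effector genes and 2 antigen presentation genes with the largest rises whose ISRE match lies upstream of the start site, since these genes moved together. They come from RefSeq (GRCh38.p14), run 5′ to 3′ in the direction of the gene and end before its start site (base −1 is the last before it), with every match to the ISRE core (GAAA, any 2 bases, GAAA), on either strand, in capitals.
OAS3 (chr12:112938321-112938473, plus strand, bases −153 to −1): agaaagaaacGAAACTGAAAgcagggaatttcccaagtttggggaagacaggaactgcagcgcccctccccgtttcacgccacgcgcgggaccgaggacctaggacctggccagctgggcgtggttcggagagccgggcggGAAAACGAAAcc
IFI6 (chr1:27672266-27672358, minus strand, bases −166 to −74): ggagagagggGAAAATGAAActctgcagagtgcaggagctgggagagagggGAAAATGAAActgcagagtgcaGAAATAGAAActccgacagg
IFIT3 (chr10:89327831-89327894, plus strand, bases −166 to −103): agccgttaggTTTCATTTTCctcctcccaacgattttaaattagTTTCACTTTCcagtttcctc
IFIT1 (chr10:89392497-89392539, plus strand, bases −126 to −84): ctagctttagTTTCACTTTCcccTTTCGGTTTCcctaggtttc
EPSTI1 (chr13:42992272-42992301, minus strand, bases −60 to −31): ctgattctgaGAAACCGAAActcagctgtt
TAP1 (chr6:32853813-32853848, minus strand, bases −144 to −109): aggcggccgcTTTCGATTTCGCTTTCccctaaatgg
HLA-F (chr6:29723268-29723297, plus strand, bases −166 to −137): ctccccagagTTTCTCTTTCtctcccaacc
In 2 of these promoters, IFIT1 and TAP1, a pair of matches lies within a few bases or overlaps, and IFI6 carries 3.

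The same element was counted in the whole window of 300 bases, from 250 before to 50 after the start. It was present in 29 of the 48 effector promoters in the table, and 17 of the 65 effectors had none there, so no share is read for that list (73.8% matched, under the 80% needed). Antigen presentation genes had 19 of 22 promoters in the table, of which 9 (47.4%) held a match. Over all 27305 promoters the share was 3.65%, and over those of compared genes 2.92%. A comparison with all compared genes, or between risen and fallen genes, is void, since only 78.9% of all compared genes had a promoter. A match is a sequence description and not evidence of binding.

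By role, the OAS enzymes, which sense double-stranded RNA, rose together. OAS3 went from 0.373 to 394 FPKM, OAS1 from 0.932 to 344 and OAS2 from 0.34001 to 208, against 104, 65.6 and 10.9 in shScr ATRA. The IFIT proteins recognise foreign RNA ends, and IFIT3 had the highest ATRA level of them, 416 FPKM from 2.35. Enzymes of the ubiquitin-like modifier ISG15 moved with it: ISG15 went from 9.62 to 529 FPKM, its conjugating enzyme UBE2L6 from 1.08 to 153, its ligase HERC5 from 3.97 to 58.4 and its protease USP18 from 2.31 to 93.9. HERC5 was at 4.66 and 6.96 FPKM in shScr cells, inside the mark.

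Other effectors covered several steps of viral replication. RSAD2 (viperin) went from 0.258 to 58.2 FPKM, and CMPK2, its neighbour in the genome, from 2.58 to 149. SAMHD1, which depletes nucleotides, went from 17.5 to 249 FPKM. The membrane proteins BST2 and IFITM1 were already at 89.996 and 84.01 FPKM under vehicle and reached 402 and 461. MX1, often used as a marker gene of interferon action, rose only from 0.1601 to 2.995 FPKM, while its relative MX2 went from 22.4 to 68.2. The list was thus not uniform: starting levels ran from 0.0328 FPKM (IFI44L) to 166 FPKM (IFITM2).

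**Figure D3:**
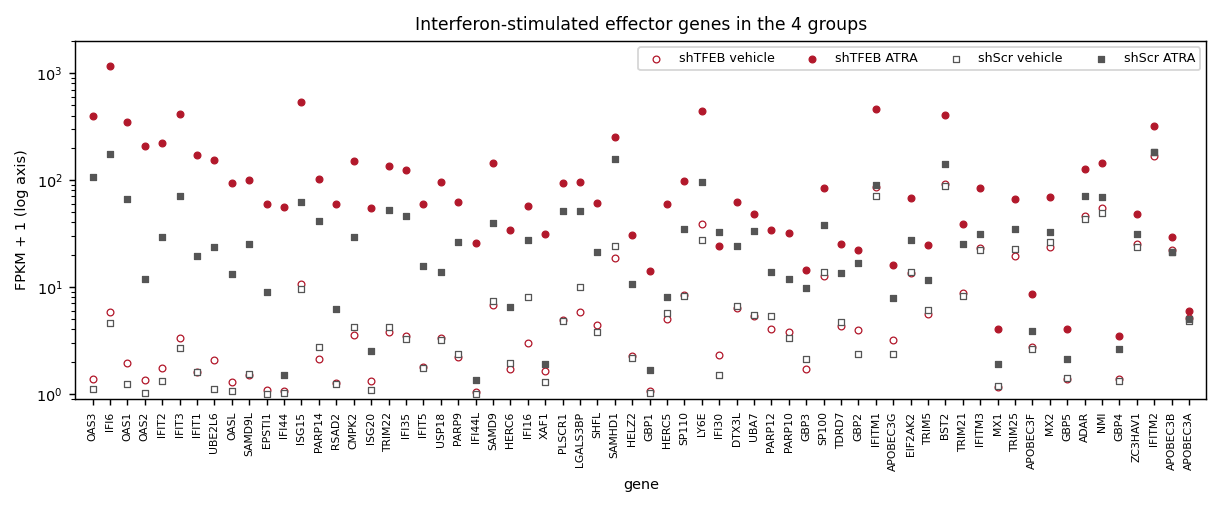
FPKM + 1 (log axis) of 64 of the 65 compared interferon-stimulated effector genes, ordered by log2 ratio in groups labelled shTFEB, in 4 groups (red circles shTFEB, grey squares shScr; open vehicle, filled ATRA). Open symbols of both lines lie close together in most genes. Filled red circles stand above filled grey squares in nearly all genes, IFI30 being an exception, and the right end holds the 4 genes inside the 2-fold mark.

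Genes that sense nucleic acids and carry the interferon signal moved as well, with 21 of 31 risen and none fallen (median 1.56). The RNA sensors RIGI and IFIH1 went from 5.99 to 178 and from 1.09 to 55.5 FPKM, and the adaptor STING1 from 12.2 to 157. STAT2 and IRF9 rose from 7.16 and 2.904 FPKM to 93.1 and 42.9, and IRF7 from 2.74 to 59.9. The receptor chain IFNAR2 passed the mark (13.5 and 34.4 FPKM) and IFNAR1 did not (10.4 and 18.2). IRF3, which is regulated by phosphorylation, stood at 14.8 FPKM in both groups, and the sensor CGAS was at 14.4 and 19.9 FPKM.

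Interferon ligand genes, looked up after the values above were seen, stayed below the filter. Of 22 ligand symbols 5 were above 0 under vehicle and 16 under ATRA, against 5 and 9 in the shScr groups. IFNB1 was listed at 0 FPKM under vehicle and 0.754 FPKM under ATRA, and at 0.0202 and 0.135 in the shScr groups. IFNA13 was the single ligand to reach 1 FPKM, with 0.0984 and 1.13 FPKM, and its near-identical copy IFNA1 had 0.0748 and 0.814. IFNG was listed at 0 in every group. Values this low rest on few fragments.

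Of 22 antigen presentation genes 20 rose, with no fall (median 2.04, 2.16 above all genes). The class I heavy chains HLA-B and HLA-C reached 1101 and 569 FPKM from 135 and 111. They are summed over copies of the locus on alternative chromosome 6 sequences, which may split fragments, so their relative levels are uncertain. The peptide transporter subunits TAP1 and TAP2 went from 18.6 to 101 and from 18.99 to 59.3 FPKM. The immunoproteasome subunit PSMB9 rose 9.35-fold. CD74, the chaperone of class II molecules, went from 0.199 to 25.6 FPKM. NLRC5, a regulator of class I genes, did not pass the mark (15.2 and 23.3 FPKM).

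**Figure D4:**
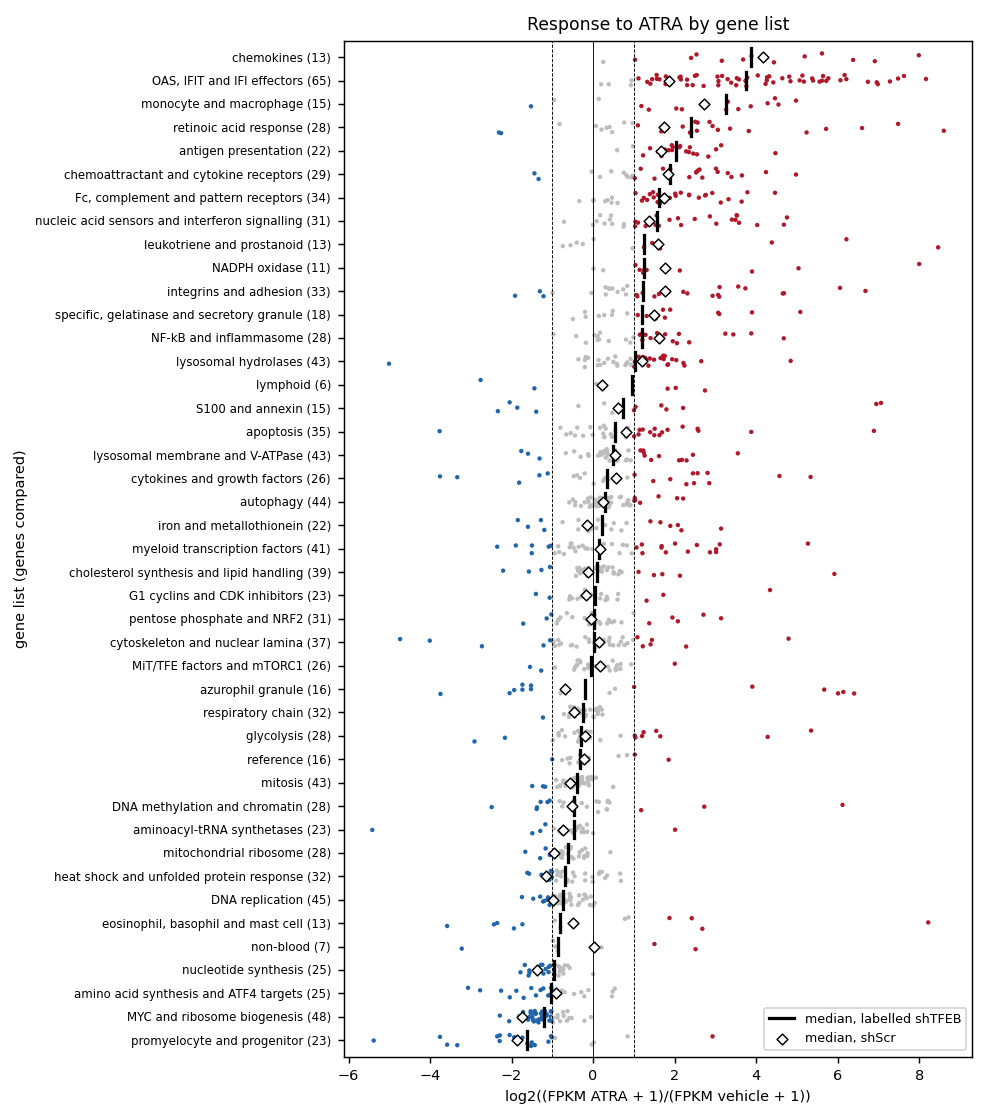
Log2 ratio of ATRA over vehicle for each compared member of the gene lists with at least 6 compared members (points, red past the 2-fold mark upward and blue downward), ordered by the median in groups labelled shTFEB (black bar), with the shScr median as a diamond. Lists of chemokines, interferon effectors and monocyte genes stand at the top and promyelocyte, ribosome biogenesis and amino acid synthesis genes at the bottom. The order depends on the filter. Without it the chemokine and monocyte medians are 0.81 and 0.68, and that of the interferon effectors is 3.74. EEF1A1 of the reference list is not drawn.

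Among 28 genes of retinoid metabolism and known retinoid targets there were 18 rises and 2 falls (median 2.39, and 0.97 without the filter). This list was assembled from genes known to respond in such cells, so its direction is no independent evidence. Enzymes that dispose of retinoids were prominent: DHRS3, which reduces retinaldehyde, went from 0.567 to 81.4 FPKM, and the retinoic acid hydroxylases CYP26B1 and CYP26A1 went from 0.154 to 10.8 and from 0.00572 to 4.33. STRA6, the retinol carrier of the cell surface, rose to 6.104 FPKM from 1.23, and to 27.9 from 0.588 in shScr cells. Among receptors RARA was at 8.25 and 11.2 FPKM, inside the mark, and its partner RXRA fell from 26.5 to 4.74. PML rose from 14.8 to 32.9 FPKM. ZBTB16, the partner of RARA in another leukaemia fusion, fell from 4.03 to 0.0138 FPKM. The noncoding HOTAIRM1 rose to 26.8 FPKM from 2.84.

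Granule genes changed in both directions. Primary (azurophil) granule genes gave 6 rises and 7 falls among 16. MPO, the granule peroxidase, fell from 2462 to 594 FPKM, and the serine protease genes PRTN3, AZU1 and CTSG from 287, 43.8 and 2.099 to 74.2, 12.5 and 0.0784. The lysozyme gene LYZ fell from 81.8 to 27.8 FPKM. The rises were BPI, the defensin genes DEFA1, DEFA3 and DEFA4, the protease inhibitor SERPINB1 and the protease activator CTSC. DEFA4 went from 0.421 to 99.1 FPKM and SERPINB1 from 5.605 to 98.03. DEFA1 and DEFA3 are near-identical, so only their joint direction is given.

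Genes of later granules and vesicles rose in 10 of 18 cases (6 with 5 FPKM added), with no fall, but the proteins that define secondary granules were nearly absent. LTF (lactoferrin) stood at 0.00475 and 0.392 FPKM, LCN2 was listed at 0 in all 4 groups, and MMP8 reached 0.806 FPKM. MMP9, of gelatinase granules, was at 30.6 and 21.4, inside the mark. The rises were led by LRG1, from 5.31 to 213 FPKM. The haptoglobin gene HP and the cathelicidin gene CAMP reached 3.07 and 2.35 FPKM.

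The NADPH oxidase, which makes superoxide at the phagosome, rose in 9 of 11 genes (median 1.24). The membrane subunits CYBB and CYBA went from 38.7 to 591 and from 127 to 317 FPKM. Of the cytosolic subunits NCF4 went from 11.9 to 29.4 FPKM. The GTPase RAC2, which activates the complex in granulocytes, rose 4.42-fold, to 282 FPKM, while the ubiquitous RAC1 stayed at 146 and 147. CYBB, CYBA and RAC2 were higher in shScr ATRA (966, 342 and 319 FPKM). Calcium-binding S100 and annexin genes moved both ways: S100P rose to 124 FPKM from 25.98, while S100A10 and its partner ANXA2 fell from 41.4 and 68.4 to 7.39 and 15.8. S100A4 and S100A6 fell as well. Of the 15 compared members 7 rose, and 4 with 5 FPKM added.

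Chemokines, which attract leukocytes, rose in 12 of 13 compared genes (median 3.88), while 15 of the 28 listed lay below the filter. Without the filter 12 of 24 chemokine genes rose and the median was 0.81. The neutrophil attractant CXCL8 went from 2.27 to 118 FPKM. The monocyte attractants CCL2, CCL7, CCL3 and CCL4 went to 1161, 14.6, 21.95 and 60.4 FPKM, CCL2 from a start of 12.97 FPKM that was 2.75 in shScr vehicle. CXCL10, which interferons also induce, reached 183 FPKM here and 176 in shScr ATRA. CCL5 was expressed throughout, at 121 and 144 FPKM.

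Cytokine genes were mixed, with 11 rises and 5 falls among 26 (42.3% and 19.2%), beside 11.5% and 10.5% of all genes. With 5 FPKM added 6 of them rose, beside 795 of all 11052 genes. IL1B, the main secreted product of inflammasome activity, went from 0.364 to 54.1 FPKM, and the B-cell factor TNFSF13B from 0.928 to 44.8 against 2.19 and 14.9 in shScr cells. TNFSF10, the death ligand TRAIL, went from 7.27 to 47.9 FPKM, and from 5.73 to 9.27 in shScr cells, inside the mark. TNF, the prototype of that family, fell from 59.6 to 16.2 FPKM. MIF fell from 399.7 to 184 FPKM.

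Receptors that guide and activate phagocytes rose in large part. Of 29 chemoattractant and cytokine receptors 19 rose and 2 fell (IL17RA and P2RY2). The fractalkine receptor CX3CR1 went from 0.117 to 34.2 FPKM and CCR1 from 2.58 to 66.8. CSF3R, the receptor for the granulocyte growth factor G-CSF, went from 11.1 to 72.9 FPKM, and the formyl peptide receptor genes FPR1 and FPR2 from 0.00984 and 0.0513 to 2.31 and 2.901. FPR2 reached 13.2 FPKM in shScr ATRA.

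Antibody, complement and pattern receptors rose in 26 of 34 cases with no fall (median 1.62). Many members are low, and 13 passed the mark with 5 FPKM added in place of 1. The shared signalling chains FCER1G and TYROBP went from 11.3 to 153 and from 19.2 to 201 FPKM. The inhibitory receptor FCGR2B went from 0.268 to 16.5 FPKM and the activating FCGR2A from 2.45 to 13.1. SIGLEC1, a macrophage lectin known to respond to interferon, went from 0.0336 to 21.8 FPKM, but only to 0.803 in shScr ATRA. The endotoxin receptor TLR4 and its cofactor LY96 reached 8.18 and 2.71 FPKM. CD33 stayed at 25.3 and 25.6 FPKM.

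Adhesion genes gave 19 rises and 3 falls among 33. The beta2 integrin chain ITGB2 and its partners ITGAM and ITGAX, which form the complement receptors of phagocytes, went from 40.6, 5.63 and 2.79 to 354, 54.6 and 49.6 FPKM. ICAM1, which such integrins bind, went from 5.11 to 406 FPKM. SIRPA, the receptor of the "do not eat" signal CD47, rose 12.5-fold to 188 FPKM. The falls were the tetraspanin genes CD9, CD82 and CD151.

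In the synthesis of lipid mediators 7 of 13 genes rose and none fell. PTGS1 (cyclooxygenase 1) went from 1.11 to 42.97 FPKM and PTGES from 0.412 to 104, below 204 in shScr ATRA. The hydrolase LTA4H, which makes leukotriene B4, stayed at 53.9 and 45.1 FPKM, as did LTC4S at 4.94 and 3.05.

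Markers of neighbouring blood lineages moved with the treatment, in part in opposite directions. Eosinophil, basophil and mast cell genes gave 4 rises (CLC, CCR3, PRG3 and SIGLEC8) and 5 falls among 13. PRG2, the eosinophil major basic protein, fell from 1548 to 402 FPKM but remained above the 69.8 FPKM of shScr ATRA. HDC, which makes histamine, fell from 96.1 to 16.98 FPKM (10.4 and 1.29 in shScr cells), and GATA2 from 21.9 to 3.48. EPX, the eosinophil peroxidase, was at 82.8 and 42.8 FPKM, short of the mark. The summed FPKM of that list went from 1925 to 1305 here and from 1463 to 194 in shScr cells, while the mast cell gene FCER1A was listed at 0 in all 4 groups. Their part in other results was not tested.

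Monocyte and macrophage genes rose in 12 of 15 compared cases, and LYZ fell, while 13 of the 28 listed lay below the filter. MERTK, a receptor for apoptotic cells, went from 2.81 to 43.96 FPKM and CSF1R from 1.06 to 19.4. MPEG1, a pore-forming protein of phagocytes, went from 0.0412 to 23.4 FPKM, while CD14 reached 1.09, CD163 0.60001 and MRC1 was listed at 0 under ATRA. The summed FPKM of the list went from 175 to 491, and from 129 to 416 in shScr cells. In bulk RNA a change in the number of cells of 1 kind and a change in RNA per cell cannot be told apart, and the part of this list in other results was not tested.

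Most listed genes of other lineages and tissues lay below the filter. Of 26 lymphoid genes 6 could be compared, 3 rose (CD79A, NKG7 and PRF1) and 2 fell (CD79B and CD3D). NKG7 went from 26.4 to 110.8 FPKM, and the summed FPKM of the compared members from 55.4 to 191. In all 4 groups 4 lymphoid genes were at 0, among them the defining genes MS4A1 and CD8B. Of 22 erythroid and megakaryocytic genes 3 could be compared and ITGA2B rose, to 2.75 FPKM, while the globin genes HBB, HBA1 and HBA2 were at 0 throughout. Of 21 genes of non-blood tissues 7 could be compared, PECAM1 and KRT8 rose and DES fell. At 0 throughout were 5 of the 21, among them COL1A2, COL3A1 and INS. KRT8 was listed at 0 under vehicle and at 4.71 FPKM under ATRA.

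Promyelocyte and progenitor genes fell in 18 of 23 cases (median −1.61, −1.49 relative to all genes), where 10.5% of all genes fell. Besides the granule proteases these were MYB, from 119 to 41.3 FPKM, the nucleolar protein NPM1, from 1562 to 579, and NAV3, from 5.29 to 0.283. CD38, a surface enzyme and direct retinoid target, was the single rise, 8.199-fold from 11.5 to 94.02 FPKM. FLT3 was at 4.502 and 4.38 FPKM.

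Transcription factors of the myeloid lineage gave 14 rises and 6 falls among 41 (34.1% and 14.6%), beside 11.5% and 10.5% of all genes. With 5 FPKM added 9 rose. After median-of-ratios rescaling 4 fell, beside 884 of 11060 genes in all, so the share of falls is not read as raised. CEBPE, which drives late granulocyte genes, rose 5.99-fold from 32.3 to 193 FPKM, CEBPB from 2.42 to 28.5 and SPI1 (PU.1) from 48.7 to 159. CEBPA, which acts earlier, fell from 34.8 to 8.61 FPKM, as did GFI1, from 40.03 to 19.05, while its relative GFI1B rose to 13.2. ID2, an inhibitor of helix-loop-helix factors, went from 1.15 to 82.1 FPKM. MXD1, which competes with MYC for MAX, rose from 5.73 to 22.2 FPKM as MYC fell from 270.5 to 54.6. IRF8, a monocyte factor, stayed inside the mark (7.303 and 4.06 FPKM).

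The fall of MYC was accompanied by the genes for making ribosomes, many of which are known MYC targets. The list of 48 genes also counts MYC itself and the polyamine enzyme gene SRM. Of these 48 genes 35 fell and none rose (median −1.22, −1.09 relative to all genes). Nucleolin (NCL) went from 853 to 357 FPKM, the methyltransferase fibrillarin (FBL) from 157 to 70.4, and NOP56, which sits with it in small nucleolar particles, from 242 to 86.3. The polyamine enzymes ODC1 and SRM fell from 205 and 94.3 to 57.8 and 21.9 FPKM. SRM stood lower still in shScr ATRA, at 9.57 FPKM, as did MYC, at 25.6. The RNA polymerase I subunits POLR1A, POLR1B and POLR1C fell, whereas the polymerase I factors UBTF and RRN3 did not pass the mark (−0.64 and −0.63). After median-of-ratios rescaling the number of fallen genes was 28 of 48.

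The E-box CACGTG, bound by MYC with MAX and by other helix-loop-helix factors, was searched in the same promoter windows. Of 41 promoters of that list in the table (85.4% of the 48 genes) 14 held it (34.1%), against 7.43% of all 27305 promoters. Among promoters of compared genes the share was 10.6%, but only 78.9% of these genes had a promoter, so that comparison is void. Many genes of the list are known MYC targets, so its share is no independent evidence. The 3 members with the largest falls whose match lies upstream of the start site are shown, the match in capitals.
SRM (chr1:11060202-11060227, minus strand, bases −209 to −184): ggccgggcccCACGTGgcccctggag
EBNA1BP2 (chr1:43172792-43172817, minus strand, bases −247 to −222): tattgttggcCACGTGggatcgaaga
UTP20 (chr12:101280085-101280104, plus strand, bases −20 to −1): tttttccgtcCACGTGaccc
SRM, EBNA1BP2 and UTP20 had log2 ratios of −2.06, −1.45 and −1.02.

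Other biosynthetic genes fell beside them. Of 25 genes of amino acid synthesis and the ATF4 response 13 fell and none rose (median −1.03). The serine synthesis enzymes PHGDH and PSAT1 went from 71.6 to 14.2 and from 56.8 to 14.7 FPKM, and the leucine transporter SLC7A5 fell 8.95-fold, from 118 to 13.2. ATF4 itself was at 319 and 275 FPKM. Of 25 nucleotide synthesis genes 12 fell, among them the pyrimidine enzyme CAD (38.8 to 10.6 FPKM) and the purine enzymes PFAS and PAICS (194 to 64.8). RRM2, the ribonucleotide reductase subunit of dividing cells, stood at 72.7 FPKM in both groups. After median-of-ratios rescaling the falls numbered 10 in the amino acid list and 9 in the nucleotide list.

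Protein folding genes fell in 10 of 32 cases (31.25%), where 10.5% of all genes fell. CALR fell from 1882 to 614 FPKM and XBP1 from 82.5 to 27.1. The mitochondrial chaperone pair HSPD1 and HSPE1 fell from 876 and 522 to 410.1 and 247 FPKM, and the chaperonin subunits CCT2, CCT3 and TCP1 fell as well. In shScr cells 20 of the 32 fell. After median-of-ratios rescaling the falls in groups labelled shTFEB numbered 3 of 32, beside 884 of 11060 genes in all. After that rescaling the share is not read as raised. The endoplasmic reticulum chaperone HSPA5 was at 211 and 259.6 FPKM. Of 23 aminoacyl-tRNA synthetase genes 4 fell (17.4%, beside 10.5% of all genes), 1 of which, AIMP2, is listed at 0 under ATRA. WARS1, an interferon-responsive enzyme, rose from 58.002 to 237 FPKM. Nuclear genes of the respiratory chain held 1 fall (ATP5MC1) among 32 (3.125%), below the 10.5% of all genes. Those of the mitochondrial ribosome held 5 among 28 (17.9%), beside the same 10.5%. After median-of-ratios rescaling or with 5 FPKM added they held 3, beside 884 of 11060 and 582 of 11052 genes in all. Their share is thus not read as raised. The tables list no gene of the mitochondrial genome.

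Fewer cell cycle genes than ribosome biogenesis genes passed the mark. Of 45 replication genes 10 fell and none rose, a share of falls above the 10.5% of all genes, led by the polymerase delta subunit POLD2 (153 to 44.8 FPKM). MCM4, a subunit of the replicative helicase, went from 81.9 to 32.7 FPKM, whereas PCNA was at 296 and 201. Of 43 mitosis genes 3 fell (MYBL2, CDC25A and MAD2L1), a share of 6.98%, below the 10.5% of all genes. MKI67 was at 76.8 and 64.1 FPKM. In shScr cells 21 and 4 genes of these lists fell. After median-of-ratios rescaling the falls numbered 5 and 3, beside 884 of 11060 genes in all. With 5 FPKM added 5 replication genes fell, beside 582 of 11052 genes in all.

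Regulators of the G1 phase gave 3 rises and 2 falls among 23 (13% and 8.70%), near the 11.5% and 10.5% of all genes. The antiproliferative genes BTG1 and BTG2 rose to 34.2 and 25.5 FPKM from 13.2 and 0.306, and the inhibitor CDKN2D from 11.9 to 41.6. CDK4 fell from 128 to 47.95 FPKM. The inhibitors CDKN1A and CDKN1B stayed at 2.98 and 3.92 and at 15.1 and 19.4 FPKM.

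Apoptosis genes rose in 15 of 35 cases (9 with 5 FPKM added), on both sides of the survival balance, and BCL2 was the single fall. The survival genes MCL1 and BCL2A1 rose to 128 and 335 FPKM from 40.7 and 1.84. The killer BAK1 went from 22.2 to 65.2 FPKM and BIK from 4.69 to 19.2, while BAX stayed at 37.3 and 44.5. Caspases 1, 4, 7, 8, 9 and 10 rose, CASP1 most, from 1.86 to 41.1 FPKM.

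NF-kB and inflammasome genes rose in 16 of 28 cases with no fall (median 1.20). The feedback inhibitors NFKBIA and TNFAIP3 went from 15.3 to 82.4 and from 6.92 to 31.9 FPKM, below their shScr ATRA levels of 153 and 52.2. NFKB2, REL and RELB rose, while RELA stayed at 20.9 and 23.7 FPKM. The inflammasome sensor NLRC4 went from 0.711 to 17.6 FPKM, and NLRP3 was at 6.25 and 6.82. The kappaB-like sequence (GGGA, any base, TTTCC, either strand) was found in 5 of the 21 promoters of that list in the table (75% of its genes, too few to compare). Of all 27305 promoters 0.579% hold it. The 3 with the largest rises and a match upstream of the start site are shown, the match in capitals.
NFKBIA (chr14:35404811-35404840, minus strand, bases −91 to −62): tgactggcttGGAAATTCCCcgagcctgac
TNFAIP3 (chr6:137867182-137867211, plus strand, bases −77 to −48): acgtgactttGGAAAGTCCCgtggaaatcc
NFKBIZ (chr3:101827757-101827786, plus strand, bases −233 to −204): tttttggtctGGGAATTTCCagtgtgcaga
The NFKBIA and TNFAIP3 matches are on the opposite strand, so their capitals read as the reverse complement, and the NFKBIZ gene went from 2.38 to 10.5 FPKM.

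Lysosomal genes, the class TFEB is known to control, rose in part. Of 43 hydrolase and luminal protein genes 23 rose (median 1.02, against 25 and 1.21 in shScr cells), and the 1 fall, CTSW, is listed at 0 under ATRA. The protease CTSD rose 29.4-fold, from 43.6 to 1282 FPKM, and the cholesterol carrier NPC2 from 18.2 to 119.8. CTSS and CTSL, which process antigens, went from 15.3 to 76.2 and from 3.21 to 16.3 FPKM, CTSL ending above its shScr ATRA level of 6.699. The saposin precursor PSAP went from 173 to 589 FPKM. PPT1 and CTSH stayed inside the mark (−0.12 and −0.36).

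In the lysosomal membrane and its proton pump 11 of 43 genes rose and 3 fell (25.6% and 6.98%), beside 11.5% and 10.5% of all genes. LAMP3, which interferon induces, went from 0.481 to 16.3 FPKM (0.302 and 1.87 in shScr cells), while LAMP1 and LAMP2 stayed inside the mark (116 and 127, 57.7 and 102). Of the proton pump, the osteoclast-type subunit TCIRG1 rose 4.42-fold, to 138 FPKM, with ATP6V1B2 and the accessory ATP6AP1. The calcium channel MCOLN1 rose from 1.96 to 6.11 FPKM, and the other channel genes TPCN1 and TPCN2 were at log2 ratios of −1.76 and −0.67, of which TPCN1 passed the mark as a fall. The CLEAR-like palindrome TCACGTGA was found in 5 of 28 hydrolase promoters and 5 of 32 membrane gene promoters in the table (65.1% and 74.4% of these genes, too few to compare). It is held by 1.04% of all promoters and by 2.04% of those of compared genes. The 3 with the largest log2 ratios and a match upstream of the start site follow, with the palindrome, which contains the E-box, in capitals.
SCPEP1 (chr17:56978093-56978120, plus strand, bases −38 to −11): tccgcctccgTCACGTGAtggggcgccg
MCOLN1 (chr19:7522572-7522623, plus strand, bases −52 to −1): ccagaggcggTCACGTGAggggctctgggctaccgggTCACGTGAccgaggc
ATP6V0D1 (chr16:67481200-67481227, minus strand, bases −70 to −43): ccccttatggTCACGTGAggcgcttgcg
SCPEP1, a serine carboxypeptidase, rose from 25.4 to 84.3 FPKM, and the pump subunit ATP6V0D1 was at 39.7 and 76.1, short of the mark.

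Autophagy genes rose in 7 of 44 cases with no fall, and in 12 cases in shScr cells. That is 15.9% against 11.5% of all genes, but with 5 FPKM added 2 of the 44 passed the mark, so the share is not read as raised. The cargo receptors SQSTM1 and OPTN went from 26.8 to 115 and from 0.283 to 4.93 FPKM, and MAP1LC3B, the membrane tag of autophagosomes, from 17.03 to 35.3. The kinase ULK1 and the conjugation genes ATG3 and ATG5 had log2 ratios of −0.08, −0.06 and 0.04. Of 26 genes of the TFEB family and mTORC1 TFEB alone rose, and EIF4EBP1 (85.1 to 28.4 FPKM) and MLST8 fell. Both shares, 3.85% and 7.69%, lie below the 11.5% and 10.5% of all genes. MTOR was at 13.2 and 11.2 FPKM, and the GTPase RRAGD, a known TFEB target, at 5.26 and 8.98.

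Glycolysis genes gave 8 rises and 2 falls among 28 (28.6% and 7.14%), beside 11.5% and 10.5% of all genes. With 5 FPKM added 4 of them rose, beside 795 of all 11052 genes. HK3, the hexokinase of mature granulocytes, went from 0.115 to 44.4 FPKM while HK1 and HK2 stayed inside the mark (−0.84 and −0.07), and the fructose transporter SLC2A5 went from 6.41 to 143. PKM rose from 263 to 770.2 FPKM, GAPDH was at 2472 and 1974, and LDHA at 571 and 287. Monocarboxylate transport moved apart, with SLC16A1 falling from 52.1 to 10.9 FPKM and SLC16A3 rising from 72.1 to 149. PFKM, the other fall, is listed at 0 under ATRA. In the pentose phosphate pathway, which feeds the oxidase with NADPH, PGD and TKT rose from 99.9 and 194 to 658 and 749.6 FPKM. The peroxidases PRDX1 and PRDX2 fell from 371 and 97.7 to 112 and 47.5 FPKM.

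Iron and metallothionein genes gave 6 rises and 4 falls among 22 (27.3% and 18.2%), above the 11.5% and 10.5% of all genes. Sterol and lipid genes gave 5 and 4 among 39 (12.8% and 10.3%), near those shares of all genes. With 5 FPKM added the iron falls numbered 2, and the lipid genes gave 3 rises and 2 falls. The ferritin light chain FTL went from 590.1 to 2498 FPKM, and the heavy chain FTH1 from 234 to 379, inside the mark. HMOX1, which degrades haem, went from 0.158 to 9.21 FPKM. The metallothionein MT2A rose from 176 to 655 FPKM, whereas in shScr cells it was at 126 and 99.8. MT1F also rose, to 75.2 FPKM, and reached 47.3 in shScr ATRA. G0S2, an inhibitor of fat breakdown, rose 65.4-fold, from 12.1 to 794 FPKM, and the cholesterol exporter ABCA1 went from 2.78 to 15.6. The sterol synthesis enzyme SQLE stayed at 26.8 and 26.2 FPKM, and the fatty acid synthase FASN fell from 69.7 to 28.4.

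Cytoskeleton and lamina genes gave 6 rises and 5 falls among 37 (16.2% and 13.5%), and chromatin genes 3 and 6 among 28 (10.7% and 21.4%), beside 11.5% and 10.5% of all genes. LSP1, an actin-binding protein of leukocytes, rose 32.2-fold, from 6.04 to 194 FPKM, and the myosin MYO1F from 76.7 to 377. The tubulin TUBB6 fell 7.43-fold, and the lamina gene LMNB1 went from 217 to 92.8 FPKM while LBR, which anchors chromatin to the envelope, was at 95.6 and 135. PADI4, which converts histone arginine to citrulline in neutrophil extracellular traps, went from 0.616 to 111 FPKM. DNMT3B fell from 20.01 to 2.74 FPKM, and DNMT3A and DNMT1 were inside the mark (0.40 and −0.55). The coactivator NCOA3 rose 7.46-fold to 49.7 FPKM, and TET2 from 2.53 to 6.98.

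Genes past the mark lay side by side in the genome in 18 places (hg19). Runs of at least 4 compared neighbours that all rose numbered 16, with 72 genes, and 2 runs of 8 genes in all fell, among 10598 genes placed in order. Many runs are families of related genes: the IFIT genes on chromosome 10 (91061706 to 91180759), the guanylate-binding genes GBP1 to GBP5 on chromosome 1 (89472360 to 89738544), the CD300 genes on chromosome 17 (72462522 to 72743474) and SP110, SP140, SP140L and SP100 on chromosome 2 (231033645 to 231410317). The longest run, of 7 genes on chromosome 5 (94994020 to 96255406), joined unrelated genes, from SPATA9 and GLRX to the peptidase genes ERAP1 and ERAP2. On chromosome 11 (1753640 to 1913493) the run held CTSD and LSP1. The 2 falling runs were RBM28, PRRT4, IMPDH1 and HILPDA on chromosome 7 (127950436 to 128098472) and ABCA2, FUT7, NPDC1 and SAPCD2 on chromosome 9 (139901686 to 139965028). Copies of a family can share fragments, and some neighbours in the runs overlap in position (CDH23 with C10orf105 and VSIR, C1RL with C1RL-AS1, RAB37 with CD300LF; whether the counting used strand is not given in the sources used here), so such neighbours are not independent measurements. By chromosome, the share of risen genes ran from 4.90% of 143 genes on chromosome 18 to 17.8% of 107 on chromosome 21.

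**Figure D5:**
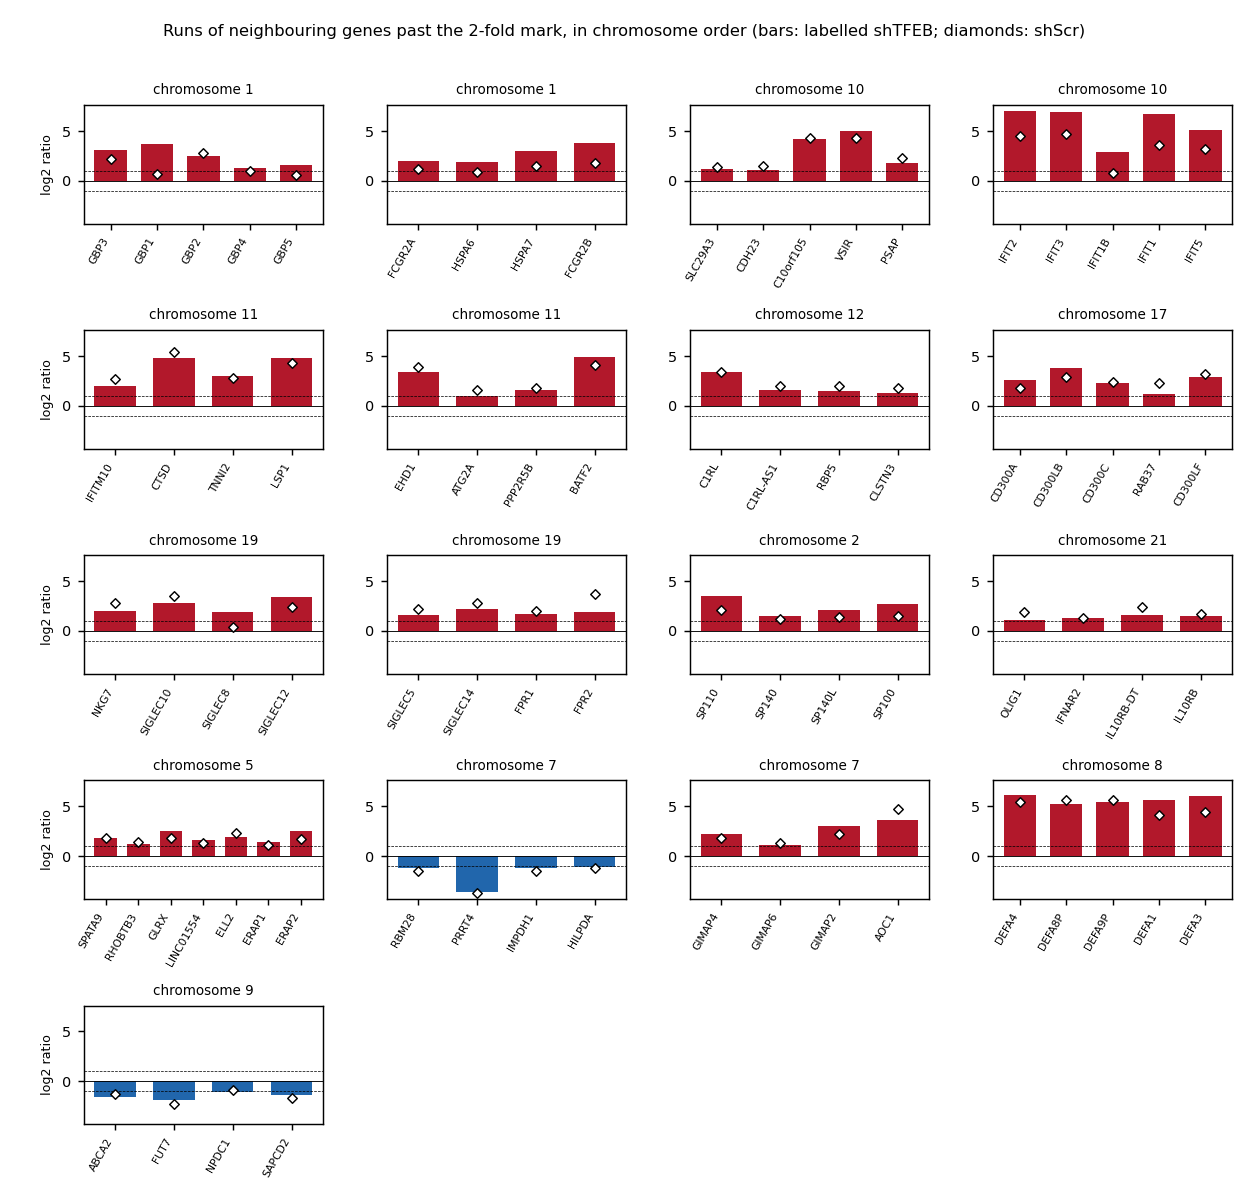
Log2 ratio of ATRA over vehicle for 17 of the 18 runs of neighbouring genes past the 2-fold mark, in chromosome order (bars, groups labelled shTFEB: red higher, blue lower; diamonds, shScr; dashed lines, the mark). Diamonds fall on the same side of 0 as the bars in each gene, and lie well below the bars in GBP1 and in the IFIT run.

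Most genes that passed the mark in groups labelled shTFEB also did so in shScr cells, which share no samples with them. In shScr cells 1384 genes rose (12.5%) and 1676 fell (15.2%). The 1060 genes that rose in both were 83.5% of the rises here and 76.6% of those in shScr cells. The 1002 genes that fell in both were 86.5% of the falls here and 59.8% of those in shScr cells. Opposite calls were rare, 12 and 9 genes, most of them small RNAs or genes listed at 0 in a group. SERF2, for example, is listed at 0 FPKM under ATRA and at 0 in shScr vehicle, beside 65.1 and 69.5 in the other groups. No difference between the 2 lines was tested, as each response rests on 1 value per group.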

How the data were processed

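RNA sequencing of NB4 cells was read from 4 group tables of 65986 transcript models each. Their FPKM values were deposited by the authors, made with TopHat and the Cufflinks suite on hg19, per the submitters' processing notes; versions, normalization and the way 2 samples became 1 value are not given in the sources used here. FPKM was summed over models per symbol. RefSeq names (GRCh38.p14) matched 39841 of 41159 accessions (96.8%), and coordinates are those of the files. Genes averaging 1 FPKM or more across the 4 groups were compared as log2 ratios with 1 FPKM added, using Python 3.11.15, numpy 2.4.6 and pandas 2.3.3. The deposited bounds enclosed the value in 77.5% and 80.4% of models in the vehicle and ATRA groups labelled shTFEB, and are not read as confidence intervals. Bounds of a gene are sums of the deposited bounds over its models. Depth per sample is unknown, and relative depth was read from the lowest values. The calculation was tried on simulated data, which checks its arithmetic and does not measure noise between samples.

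The members and gene lists were chosen with earlier results of these data known. Named genes were TFEB and its relatives, the 25 largest rises and falls (at least 5 FPKM in 1 group, above 0 in both), the 10 most abundant genes, up to 8 members per list by size of change, and further members as context. Alternatives covered the added value, the filter, scaling, the handling of models, zeros, small RNAs and the deposited bounds; leaving out failed estimates was chosen after seeing the data. Wild-type NB4 cells were not analysed here. Some genes are not reported here and are left out of the figures that name genes.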

Additional observations from a re-analysis of the deposited data

Results flagged for a closer look

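MT2A, a metallothionein that binds zinc and copper, had log2 ratios of opposite sign in the 2 hairpin lines. It rose from 176 to 655 FPKM in groups labelled shTFEB (log2 ratio 1.89) and was at 126 and 99.8 FPKM in shScr cells (log2 ratio −0.34). The difference was not tested, since each group has 1 value.

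Transcript models assembled without a gene symbol took no part in the comparison. Of 712 such models with a mean of at least 1 FPKM, 115 were at least 2-fold higher under ATRA and 63 lower, among 21434 such models in the tables.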

How the results depend on the processing

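No paired analysis was possible because each group has 1 value per gene, and for the same reason no replicate could be left out and depth sets no interval. The 1270 higher and 1159 lower genes became 1439 and 1451 with 0.1 FPKM added in place of 1, and 795 and 582 with 5 FPKM added. Without the filter 16958 genes gave 1347 and 1207, and the median log2 ratio was −0.00532 in place of −0.13. Median-of-ratios rescaling gave 1440 and 884 with a median of 0. Every other alternative kept both counts within 1.5 times: 921 and 843 with a mean of at least 5 FPKM, 1304 and 1082 with upper-quartile rescaling, 1230 and 1095 with deposited bounds apart, and 1268 and 1158 without failed estimates, an alternative chosen after seeing the data. Among the 354 genes named by rule, none that passed the mark changed direction under these alternatives. Genes inside the mark, and further members named as context, were not checked for this. Of the 354 genes 37 no longer passed the 2-fold mark with 5 FPKM added and 14 with median-of-ratios rescaling.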
